A study of Mus musculus with 6 samples.

Results

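The genes of the IL-12 and IL-23 cytokine axis were examined for binding of p65, the NF-κB subunit encoded by Rela, in mouse epidermal cells. They are 10 genes chosen by name, Il12a, Il12b, Il23a, Il23r, Il12rb1, Il12rb2, Ebi3, Il27, Il27ra and Stat4, of 20923 protein-coding genes with a curated RefSeq transcription start on the chromosomes that held peaks. A peak was assigned to the gene whose start was nearest to the middle of the peak in GRCm38, the assembly of mm10, and any other peak within 50 kb of a start was listed as well. In ChIP–seq, DNA bound by a protein is pulled down with an antibody, here against p65, and sequenced, so that occupied places appear as peaks.

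The peak lists came from 3 conditions of C57bl/6J mice, each from the pooled reads of 4 mice. Adult mice, 17 to 25 weeks old, had received no treatment. Aged mice had received intraperitoneal injections of a control IgG (aged/IgG control, here IgG-aged) or of antibodies that block IL-17A and IL-17F (aged/anti-IL-17A/F, here IL-17-blocked) for 12 weeks from 73 weeks of age. Age and injections therefore cannot be told apart between adult and IgG-aged. There was 1 list per condition and no replicate, so no difference between conditions was tested, and the 3 input libraries of the series were not analysed here. The lists held 8525 (adult), 4169 (IgG-aged) and 6014 (IL-17-blocked) peaks. Each peak has a fold enrichment over the local background, a −log10 q and a summit, and its strength is given here as the fold enrichment and its rank or percentile within its own list. The depth behind single peaks is unknown. In the list labelled adult, all 8525 peak names begin with "Treated", as do those of the list labelled IL-17-blocked. The labels were kept, and the study's own annotation of its adult peaks uses the same names. Were the lists exchanged, the Il23a promoter would be called in adult and IgG-aged and not in IL-17-blocked, the start of Il12rb2 in IL-17-blocked alone and Stat4 in adult alone. Peaks were assigned to 9 of 10 keratinocyte markers in adult, 6 in IgG-aged and 7 in IL-17-blocked, including Trp63 and Krt1 in every condition. Of 8 T cell markers, no gene had a peak in adult or IgG-aged and only Thy1 had one in IL-17-blocked, and of 8 markers of antigen-presenting cells, 3 had a peak in each condition, namely H2-Ab1 and H2-Aa in every list with Cd74 in adult and IL-17-blocked and Itgax in IgG-aged. Over all protein-coding genes, a peak was assigned to 23.1% in adult, 12.9% in IgG-aged and 17.4% in IL-17-blocked, so the T cell count is near what a list of that size holds on average. A p65 peak is no measure of the share of a cell type. In these mixed cells, more cells with p65 at a site and more p65 per cell cannot be told apart.

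IL-12 and IL-23 are cytokines of antigen-presenting cells that share the subunit encoded by Il12b, which pairs with the product of Il12a in IL-12 and with that of Il23a in IL-23. Their receptors share the chain encoded by Il12rb1, which joins Il12rb2 for IL-12 and Il23r for IL-23. IL-12 acts largely through STAT4 and favors cells that make interferon-γ, whereas IL-23 sustains T cells and innate lymphoid cells that make IL-17 and is a target of treatment in psoriasis. IL-27 pairs the products of Il27 and Ebi3 and acts through the receptor chain encoded by Il27ra. Several of the cytokine subunit genes are known NF-κB targets in myeloid cells.

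The sites described below are shown first, because the presence of an NF-κB motif is a feature in which they differ. All are printed 5′ to 3′ on the plus strand of RefSeq's GRCm38.p6 (mm10), and capitals mark a match to the NF-κB consensus motif of 10 letters, sought on both strands. The first 3 lines are the peaks of Il23r, Il12b and Il23a, and the next 2 are the different sites found for Il12rb2. The line of Stat4 is a peak without a match, and that of Pan2 is the strong peak closest to Il23a. Windows span 50 bp to either side of a summit, or 10 bp to either side of the match for the Il12rb2 start and Pan2.
Il23r intron, chr6:67459632-67459732: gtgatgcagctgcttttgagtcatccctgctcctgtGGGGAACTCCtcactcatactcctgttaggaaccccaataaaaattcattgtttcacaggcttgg
Il12b intron, chr11:44401934-44402034: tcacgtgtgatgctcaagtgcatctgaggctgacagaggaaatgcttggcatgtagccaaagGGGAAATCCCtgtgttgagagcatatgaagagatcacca
Il23a promoter, chr10:128298154-128298254: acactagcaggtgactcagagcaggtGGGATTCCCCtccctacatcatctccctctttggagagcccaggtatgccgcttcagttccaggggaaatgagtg
Il12rb2 start, chr6:67376170-67376199: ccggccctcgGGGAAGTCCCttctgcgctc
Il12rb2 upstream, chr6:67385094-67385194: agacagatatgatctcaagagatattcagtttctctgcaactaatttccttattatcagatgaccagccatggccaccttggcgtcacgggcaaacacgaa
Stat4 intron, chr1:51997036-51997136: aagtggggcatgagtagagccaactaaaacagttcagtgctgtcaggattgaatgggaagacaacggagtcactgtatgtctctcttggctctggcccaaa
Pan2 start, chr10:128303372-128303401: tagggaaactGGAATTTCCCgcggagctga

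Peaks were assigned to 5 of the 10 genes in all. Il23r and Il12b had a peak in every condition, Il23a in both aged conditions, Il12rb2 in adult and IgG-aged, and Stat4 in IL-17-blocked, each with 1 peak per list. Il12a, Il12rb1, Ebi3, Il27 and Il27ra had none. In adult, 3 of the 10 genes had a peak, against 23.1% of all protein-coding genes. In IgG-aged, 4 had a peak, against 12.9%, and in IL-17-blocked 4, against 17.4%. A peak in every condition was found for 2 of the 10, against 11.4% of all genes, and a peak in any condition for 5, against 25.2%. The counts depend on the length of the lists. When each list was reduced to its strongest 4169 peaks, 1 gene remained in adult (background 13.1%), 4 in IgG-aged (12.9%) and 3 in IL-17-blocked (13.1%). With only peaks of −log10 q of at least 10, the numbers were 2 (16.8%), 2 (9.66%) and 3 (13.0%) in the same order. Apart from that of Il23r, every assigned peak lay below the median fold enrichment of its list.

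**Figure D1:**
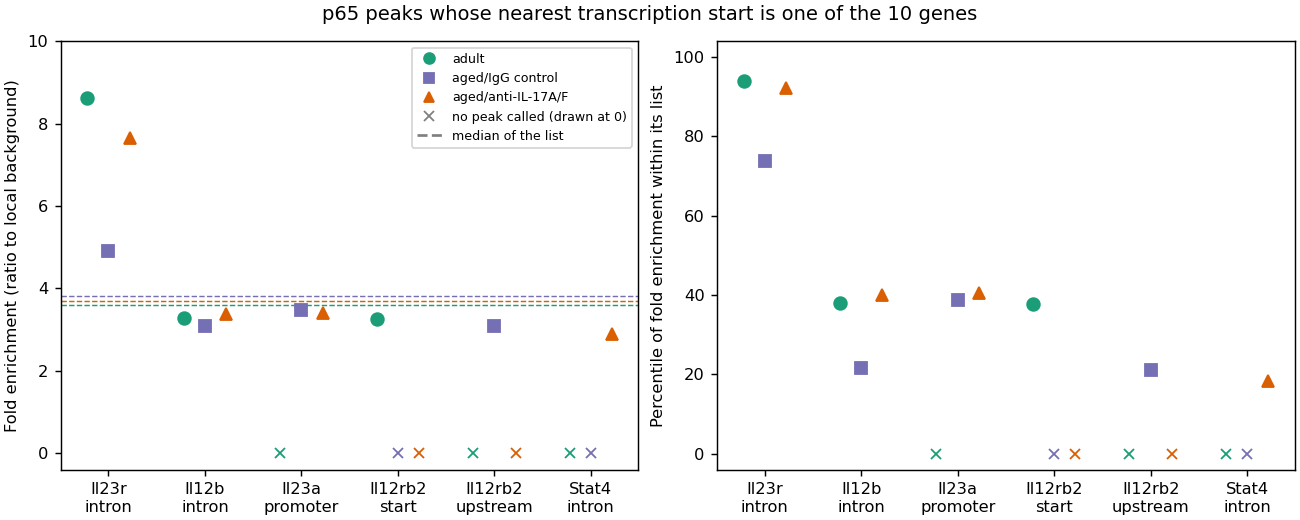
Fold enrichment (left, ratio to the local background) and percentile of fold enrichment within the list (right) of the peaks assigned to the 10 genes, by site and condition, with 1 point per list and a cross at 0 where no peak was called. The 3 Il23r peaks lie above the dashed medians of 3.60 to 3.80, with percentile 94.1 in adult, and the peaks of the other genes sat below them.

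Il23r, the receptor chain specific to IL-23, held the strongest assigned peak in each condition. The gene spans 67422932 to 67491855 of chromosome 6 (minus strand), and the peak is in an intron, about 32 kb downstream of the transcription start. In adult, it ran from 67459331 to 67459919 at 8.63-fold enrichment (−log10 q 75.0), rank 506 of 8525. In IgG-aged, it ran from 67459299 to 67459894 at 4.91-fold enrichment (−log10 q 26.9), rank 1091 of 4169. In IL-17-blocked, it ran from 67459403 to 67459959 at 7.65-fold enrichment (−log10 q 59.3), rank 475 of 6014. The value was thus high in adult and IL-17-blocked and lower in IgG-aged, where its percentile was 73.9 instead of 94.1 and 92.1. A longer list holds more weak peaks and so raises the percentile of a strong one, whereas the ranks of 506, 1091 and 475 count from the strongest peak down. The peaks overlapped in all lists, and all 3 summits lay within 29 bp of the same motif match, GGGGAACTCC, from 67459668 to 67459677, which is capitalized in the first line of the sequences. Repeat-masked bases made up 20.5% of the adult peak.

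To set the difference at Il23r beside the rest of the genome, the ratio of fold enrichments was taken over pairs of overlapping peaks, each with its strongest partner and without peaks that fell in several pairs. The ratio of IgG-aged to adult was 0.569 at Il23r, against a median of 0.812 over 3853 shared peaks, at percentile 8.64 of these ratios. The ratio of IL-17-blocked to IgG-aged was 1.56 at Il23r, against a median of 1.10 over 3574 shared peaks, at percentile 92.4. Both ratios use the IgG-aged list, so a low value in that list moves them in opposite directions. The third ratio follows from the other two and is no separate measurement. Between adult and IL-17-blocked, the ratio at Il23r was 0.887, close to the median of 0.899 over 5078 shared peaks. The medians show that shared peaks as a whole were also weaker in IgG-aged, and 78.6% of them had a lower fold enrichment there than in adult. With 1 list per condition, the ratio at a single peak has no error.

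**Figure D2:**
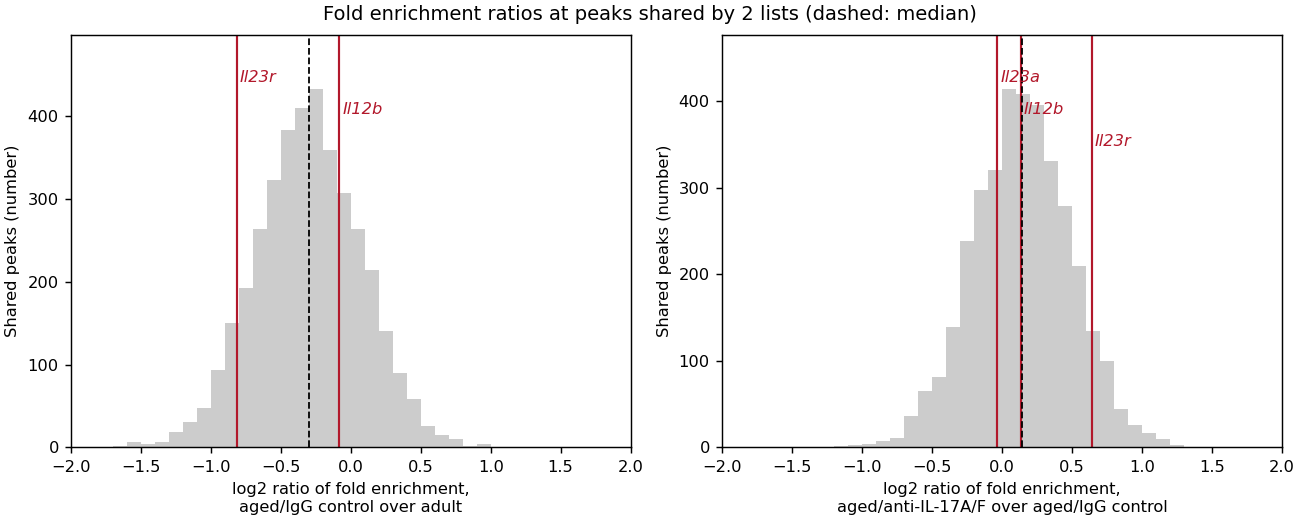
Histograms of the log2 ratio of fold enrichment at peaks shared by adult and IgG-aged (left) and by IgG-aged and IL-17-blocked (right), with red lines for the peaks assigned to the 10 genes and a dashed line for the median. Il23r sits at −0.81 on the left and at 0.64 on the right, and Il12b lies nearer to the medians of −0.30 and 0.14. Il23a, without an adult peak, is drawn on the right only, at −0.03.

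Il12b encodes the subunit shared by IL-12 and IL-23. It spans 44400063 to 44414677 of chromosome 11 (plus strand), and in every condition it had a peak in an intron close to the start. The middle of the peak was 1963 bp downstream of the start in adult, 1969 bp in IgG-aged and 1915 bp in IL-17-blocked. The fold enrichments were 3.27, 3.09 and 3.39, respectively, with −log10 q of 9.19, 8.58 and 11.1. The ratio of IgG-aged to adult was 0.944, against the median of 0.812 over shared peaks, and that of IL-17-blocked to IgG-aged was 1.10, as was the median. The second change was thus that of a typical shared peak. The percentile within the list was 38.0 in adult, 21.5 in IgG-aged and 39.9 in IL-17-blocked. The motif match GGGAAATCCC, from 44401996 to 44402005, lies in all 3 peaks and reads as a match on either strand. It was 53 bp from the summit in adult, 19 bp in IgG-aged and 12 bp in IL-17-blocked. The promoter of Il12b, from 250 bp before to 50 bp after its start, held no match.

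Il23a encodes the subunit specific to IL-23 and spans 128296140 to 128298084 of chromosome 10 (minus strand). In both aged conditions, a peak covered its transcription start. In IgG-aged, the peak ran from 128298011 to 128298348, at 3.48-fold enrichment (−log10 q 10.1), rank 2541 of 4169. In IL-17-blocked, it ran from 128298058 to 128298411, at 3.40-fold enrichment (−log10 q 13.4), rank 3580 of 6014. These overlapping peaks had almost the same fold enrichment, with a ratio of 0.977. Both contained the motif match GGGATTCCCC, from 128298180 to 128298189, 100.5 bp upstream of the start and 15 bp or less from the summits.
In adult, no peak was assigned to Il23a, and the closest one was 4537 bp from that of IgG-aged. Of all protein-coding genes, 0.602% had a peak in IgG-aged and none in adult, and 0.215% had one in both aged lists and none in adult. Il23a was the only one of the 10 genes in either class with the full lists. With equal numbers of peaks per list, 3 of the 10 had a peak in IgG-aged and none in adult, namely Il12b, Il12rb2 and Il23a, beside 2.67% of all genes. Among IgG-aged peaks of like strength to that of Il23a, in 1 decile of their list,, 10.1% had no overlapping adult peak. The weakest adult peak called had a fold enrichment of 1.85, and the 10th percentile of the adult list was 2.63, both less than the value at Il23a in the aged lists. An uncalled site has no value in these lists, so the signal at Il23a in adult is unknown.

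The closest adult peak belongs to a strong site that was called in every condition, 5224 to 5301.5 bp upstream of Il23a at the start of the divergent neighbor Pan2, which encodes a subunit of a deadenylase that shortens mRNA tails. Its fold enrichment was 11.7 in adult, 9.69 in IgG-aged and 11.2 in IL-17-blocked, at ranks 180, 121 and 136. It held 1 match, shown in the last line of the sequences, within 14 bp of each summit. The ratio of IgG-aged to adult was 0.826, near the median of 0.812. A further peak, 31753.5 to 31818 bp upstream of Il23a and nearest to Cnpy2, was also called in every condition, with fold enrichments of 3.38 in adult, 3.91 in IgG-aged and 3.42 in IL-17-blocked. At the start of Cnpy2 itself, a peak was called in IL-17-blocked only, with a fold enrichment of 3.09. Of the sites within 50 kb of Il23a, the promoter was thus the one called in both aged lists and not in adult.

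**Figure D3:**
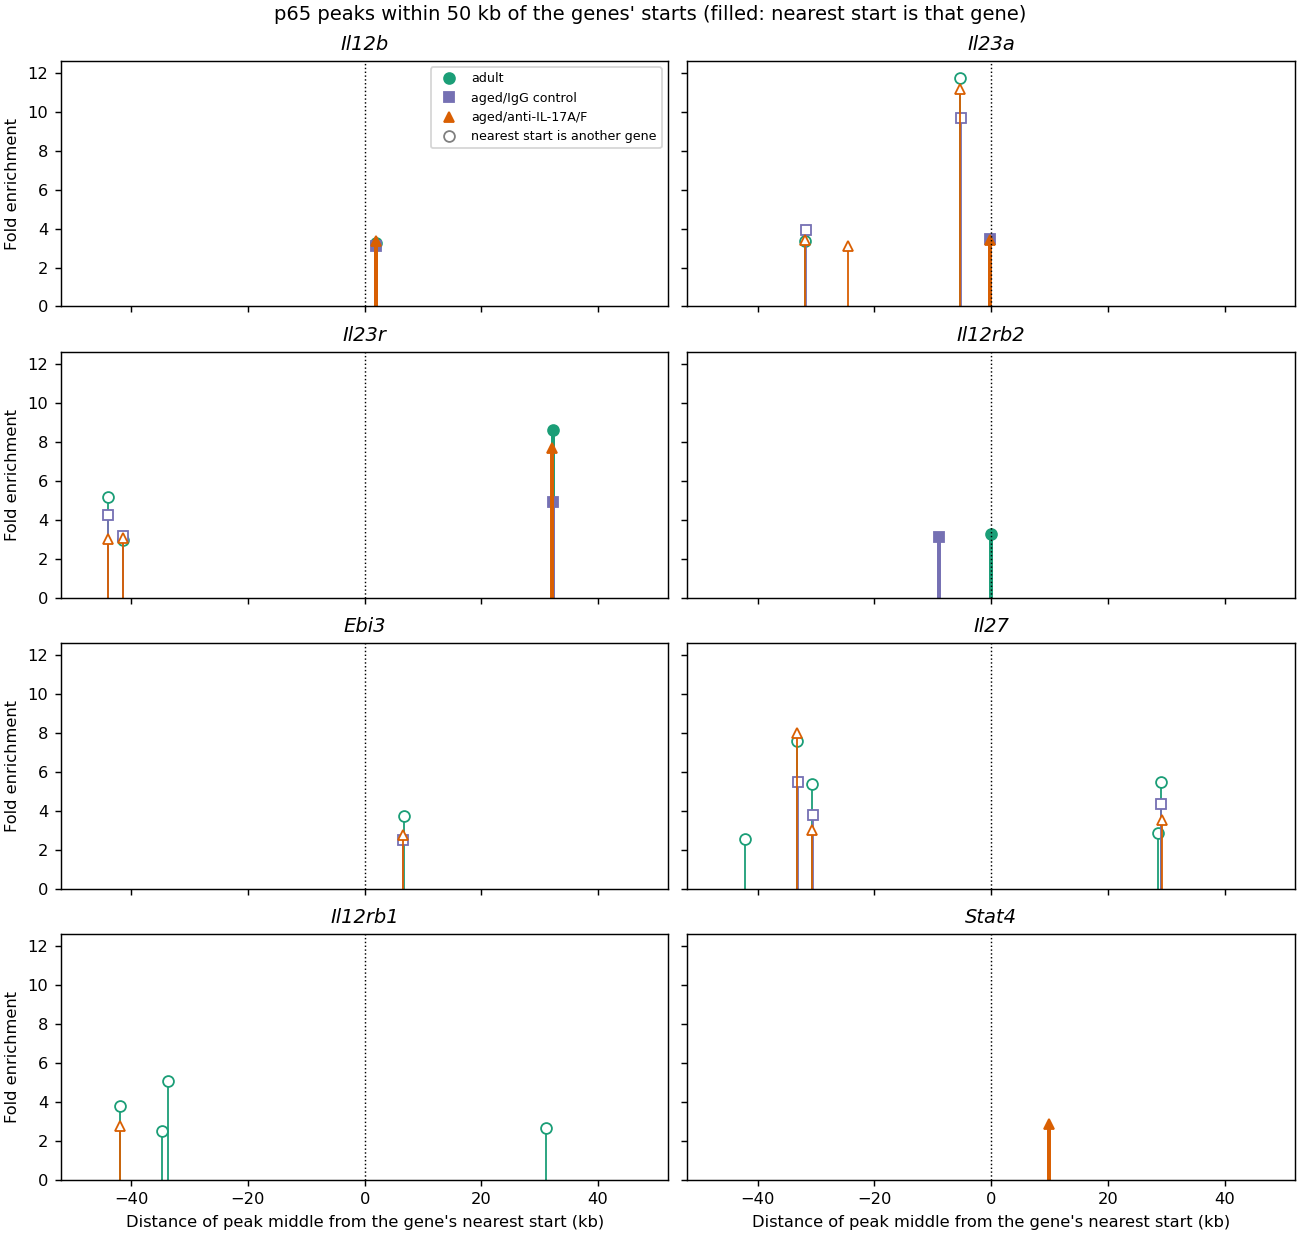
Fold enrichment of every p65 peak within 50 kb of a start of 8 of the 10 genes, against the distance of the peak's middle from that start in kb (negative is upstream), with 1 symbol per peak and condition. Filled symbols are peaks assigned to the gene and open ones are nearest to another gene. The tall open symbols upstream of Il23a, at 9.69 to 11.7, are those at Pan2, and Il12a and Il27ra had no peak to draw.

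Il12rb2, the receptor chain specific to IL-12, lies beside Il23r and spans 67285986 to 67376293 of chromosome 6 (minus strand). It had a peak in adult and in IgG-aged, but not at the same site. The adult peak ran from 67375930 to 67376317 and covered a transcription start, at 3.27-fold enrichment (−log10 q 10.2), rank 5298 of 8525. The IgG-aged peak ran from 67384963 to 67385330 in intergenic sequence, 8958.5 bp upstream of the start, at 3.09-fold enrichment (−log10 q 8.01), rank 3280 of 4169. A gap of 8646 bp separates them, and neither site was called in another list. Of the 2579 protein-coding genes with a peak in both adult and IgG-aged, 44 had no overlapping pair of peaks (1.71%, 95% Wilson interval 1.27 to 2.28%, for counting error only), and Il12rb2 is the only one of the 10 genes among them.
The sites also differ in sequence. The adult peak has a motif match, from 67376180 to 67376189, whose middle is 3.5 bp from the start, and the upstream peak has none, though both have a match to a looser form of the motif, with the same outer letters and free inner ones, within 100 bp of the summit. GC content was 62.9% in the adult peak and 49.2% in the upstream peak, beside medians of 53.8% and 53.1% in their lists. Adult peaks in the same decile as the peak at the start were missing from IgG-aged in 76.7% of cases and from IL-17-blocked in 59.1%. Aged/IgG control peaks in the decile of the upstream peak were missing from adult in 12.9% of cases and from IL-17-blocked in 28.0%. In IL-17-blocked, the peak closest to a start of Il12rb2 was that of Il23r, 83493 bp away. A peak in adult and IgG-aged and none in IL-17-blocked was found for 0.918% of all genes, and a peak in IgG-aged and none in IL-17-blocked for 1.30%. In both classes, Il12rb2 was the only one of the 10. It was likewise the only one with a peak in adult and none in IL-17-blocked, beside 7.38% of all genes, and none of the 10 had a peak in adult and none in IgG-aged, beside 10.8%. These classes depend on the threshold. With equal numbers of peaks, 0 of the 10 had a peak in adult and none in IL-17-blocked, beside 2.76% of all genes. At a −log10 q of at least 10, 0 had one in IgG-aged and none in IL-17-blocked (background 0.803%), and 1, Il12rb2, had one in adult and none in IgG-aged (7.46%).

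Stat4 encodes the transcription factor activated by IL-12. It spans 51987106 to 52107189 of chromosome 1 (plus strand) and had a peak in IL-17-blocked alone, from 51996917 to 51997217 in an intron, 9919 bp downstream of the nearer start. Its enrichment was 2.89-fold at a −log10 q of 6.15, rank 4910 of 6014, which made it the weakest of the 11 assigned peaks. It held no match to the consensus motif, though the looser form was found within 100 bp of the summit, as it was at 70.3% of all peaks in that list. Of peaks in the same decile, 29.7% had no overlapping adult peak and 69.7% had none in IgG-aged. A peak in IL-17-blocked only was found for 1.49% of all genes, a peak there and none in IgG-aged for 5.81%, and a peak there and none in adult for 1.70%. Stat4 was 1 of the 10 genes in each class, joined in the last by Il23a.

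The remaining 5 genes had no assigned peak. Ebi3, the subunit of IL-27 that is also part of IL-35, spans 55952623 to 55957022 of chromosome 17 (plus strand). The closest peak was beyond its 3′ end at the starts of Yju2 and Gm16712, 6783 bp from the start of Ebi3 in adult, 6643.5 bp in IgG-aged and 6607.5 bp in IL-17-blocked. Its fold enrichment was 3.75 in adult, 2.50 in IgG-aged and 2.77 in IL-17-blocked, and none of these peaks held a consensus match. The promoter of Ebi3 itself held a match 39.5 bp upstream of its start, although no peak was called there in any list. It is printed here because it is the site of an uncalled promoter match.
Ebi3 promoter, chr17:55952569-55952598: gccccttcctGGGGCTTCCCcgttggccat
RefSeq promoter windows of GRCm38.p6, 300 bp long, were at hand for 6 of the 10 genes. Of their 8 windows, 2 held a consensus match, those of Ebi3 and Il12rb2, against 4.51% of 32851 promoter windows in all. Il23a, Il12rb1, Il27 and Il27ra had no window, so the match upstream of the start of Il23a is not in this count.

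Il27 encodes the other subunit of IL-27 and spans 126589009 to 126595035 of chromosome 7 (minus strand). The peaks within 50 kb of its start numbered 5 in adult, 3 in IgG-aged and 3 in IL-17-blocked. All were nearest to Eif3c, a translation initiation factor subunit, or to Nupr1, a stress-induced nuclear protein, and at least 28 kb from Il27. The strongest, about 33 kb upstream, had a fold enrichment of 7.60 in adult, 5.46 in IgG-aged and 7.98 in IL-17-blocked. Like the peak in Il23r, it was lower in IgG-aged than in the other lists, with a ratio of 0.718 to adult, at percentile 31.8 of the shared peaks. The peak at the start of Nupr1 had another order, with 5.38, 3.78 and 3.01, as did that in Eif3c, with 5.47, 4.34 and 3.52. Peaks around Il27 therefore did not share 1 pattern across conditions.

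Il12rb1, the chain common to the receptors of IL-12 and IL-23, spans 70808360 to 70823542 of chromosome 8 (plus strand). Within 50 kb of its start there were 4 peaks in adult, none in IgG-aged and 1 in IL-17-blocked, all more than 31 kb from it. The strongest was in an exon of Pik3r2, a regulatory subunit of phosphoinositide 3-kinase, with a fold enrichment of 5.06 in adult at percentile 77.2, and it had no counterpart in either aged list. Of adult peaks in that decile, 25.8% were missing from IgG-aged and 9.96% from IL-17-blocked. The peak at Ifi30, a lysosomal thiol reductase of antigen processing, was called in adult at 3.81 and in IL-17-blocked at 2.78. For Il12a, whose product pairs with that of Il12b in IL-12, the closest peak was 194839 bp away in adult, 289720 bp in IgG-aged and 194790 bp in IL-17-blocked. For Il27ra, it was 87316.5 bp, 155137 bp and 105572 bp away. Il12a and Il27ra were thus without a called p65 site within 50 kb in any list.
When every peak within 50 kb was counted, 7 of the 10 genes had one in adult (background 43.6%), 6 in IgG-aged (27.6%) and 7 in IL-17-blocked (35.1%). Of the 10, 5 had one in every condition (25.4%) and 8 in any (46.0%). Most of these peaks were nearest to another gene, namely 14 of 17 in adult, 8 of 12 in IgG-aged and 10 of 14 in IL-17-blocked.

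Motif matches were counted within 100 bp of the summits. All 3 assigned peaks in adult had a match, as did 3 of 4 in IgG-aged and 3 of 4 in IL-17-blocked. The share over all peaks was 28.5% in adult (95% Wilson interval 27.5 to 29.4%), 37.8% in IgG-aged (36.3 to 39.2%) and 34.9% in IL-17-blocked (33.7 to 36.1%), and it was 2.18%, 1.95% and 2.26% in windows 2000 bp to either side. The peaks at Il23r, Il12b, Il23a and the start of Il12rb2 had a match, and those upstream of Il12rb2 and in Stat4 did not. The peaks without a match were each called in a single list, although the peak at the start of Il12rb2, with a match, was also called in adult only. The peaks that overlap between lists carry the same sequence, so these counts are not independent.

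Beyond the 10 genes, 41 genes known to act with this axis were counted by role, to be read beside the 23.1%, 12.9% and 17.4% of all genes with a peak in adult, IgG-aged and IL-17-blocked. The receptor partner Il6st and the kinases Jak1, Jak2 and Tyk2, which start signaling from these receptors, all had a peak in every condition. Where a gene had several peaks, the strongest in each list is given, which need not be the same site. Tyk2 had a fold enrichment of 8.87 in adult, 5.58 in IgG-aged and 8.38 in IL-17-blocked, and Jak1 had 7.16, 4.48 and 6.80. Il6st had 13.6, 8.35 and 8.11, and Jak2 had 6.67, 6.47 and 6.57. The strongest peaks of Tyk2 and Jak1 were thus lower in IgG-aged than in the other lists, that of Il6st was lower in both aged lists than in adult, and that of Jak2 was nearly level. Of all peaks shared by adult and IgG-aged, 78.6% were lower in IgG-aged, with a median ratio of 0.812. The median ratio of IL-17-blocked to IgG-aged was 1.10. A lower value in IgG-aged is therefore usual for shared peaks and not particular to these genes. Stat5b, another STAT gene, was called in adult at 2.67 and in IL-17-blocked at 3.27 and not in IgG-aged.
Regulators of the cytokine genes, such as NF-κB subunits and interferon regulatory factors, had a peak in 7 of 11, 6 of 11 and 7 of 11 cases. Batf3, a dendritic cell factor, was called in adult alone, with a fold enrichment of 2.73 at percentile 13.7 of that list. Cebpb, a factor of inflammatory gene expression, was called in IL-17-blocked alone, at 2.43 and percentile 3.52. Both were weak peaks, and a site near the threshold can be called in one list and missed in another. Of all genes, 10.8% had a peak in adult and none in IgG-aged, 7.38% in adult and none in IL-17-blocked, and 1.49% in IL-17-blocked only. Rela at 13.0, Irf1 at 11.4 and Rel at 11.2 in adult had high fold enrichments and a peak in every condition.
Downstream of the cytokines, T cell genes were counted last. Of 6 fate factors, 3 had a peak in adult, 1 in IgG-aged and 2 in IL-17-blocked. Gata3 was called in every condition. The strongest peak of Rora had a fold enrichment of 3.54 in adult (percentile 47.9) and 3.75 in IL-17-blocked (51.8), with none called in IgG-aged. Tbx21 was called in adult alone, at 3.04 (27.4). Of 13 output cytokines and receptors, 11 had no peak in any condition, among them Ifng, Il17a, Il17f and Il22, and 2 had one, near the share of 25.2% of all genes with a peak in any condition. Il6ra was called in every condition, and Il1r1 in adult and IgG-aged. The feedback genes Socs1 and Cish had a peak in every condition, whereas Socs3 had 6 peaks in adult, none in IgG-aged and 1 in IL-17-blocked. Over all 41 genes, 23 had a peak in adult, 18 in IgG-aged and 21 in IL-17-blocked, an order that the number of peaks per list also follows.

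**Figure D4:**
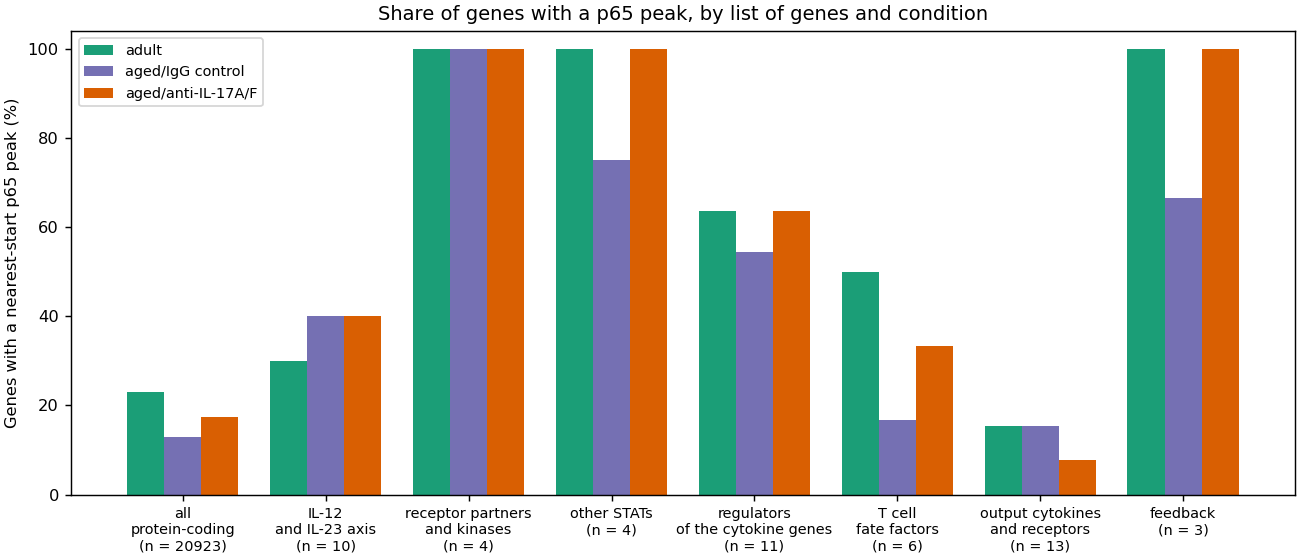
Share of genes (percent) with an assigned p65 peak in each condition, for all protein-coding genes, the 10 genes of the axis and the groups of genes that act with it, with the number of genes under each group. All 4 receptor partners and kinases had a peak in every condition, whereas all protein-coding genes sat at 12.9 to 23.1%.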

How the data were processed

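The authors trimmed reads with Trimmomatic 0.36, aligned them to mm10, merged and deduplicated the alignments of the 4 mice of each condition, downsampled the pools and ran MACS2 for peak calling (q value threshold 0.01). Use of the inputs and the MACS2 version are not given in the sources used here. The deposited lists hold a score, the fold enrichment (a ratio), −log10 p and −log10 q of each peak. Pooling before peak calling removes the spread between mice, and a site near the threshold can be called in one list and missed in another.

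From these, peaks were assigned to the nearest start of curated RefSeq transcripts of GRCm38, overlaps needed at least 1 bp, and shares have 95% Wilson intervals for counting error. All chromosome ends fit that assembly. The NF-κB consensus motif was sought by its degenerate letters. The genes and lists were chosen with earlier results of these data known, so no test was made on them. Every gene of the list was named with each of its peaks, and pathway genes where conditions differed or fold enrichment was highest. Some neighboring and pathway genes are not reported here. Alternatives were stricter thresholds, equal peak numbers, other starts, windows, motifs and overlaps. Exchanging or leaving out lists was added after seeing the data. Steps were tested on simulated data. Python 3.11.15, numpy 2.4.6, pandas 2.3.3, scipy 1.17.1, pysam 0.24.0, matplotlib 3.10.9 and bedtools 2.31.1 were used.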

Additional observations from a re-analysis of the deposited data

How the results depend on the processing

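Of 154 recomputed counts, 131 stayed within 1.5 times the reported one and 23 did not. With a −log10 q of at least 5, other starts, distances from the summit, a limit of 10 kb, a window of 100 kb, other motif rules or an overlap of 50% of both peaks, all did. With a −log10 q of at least 10, IgG-aged kept 2 genes with 2 assigned peaks (from 4), those of Il23a and Il23r (background 9.66%), and the genes with a peak within 50 kb numbered 3 in IgG-aged (21.2%) and 4 in IL-17-blocked (27.2%). One gene, Il12rb2, was then called in adult and not in IgG-aged (1, from 0, background 7.46%), and 0 in IgG-aged and not in IL-17-blocked (0.803%). With equal numbers of peaks, adult kept 1 gene, Il23r, with 1 peak, 1 motif match and 1 overlap with each other list, so that 1 peak of each aged list overlapped adult, and 4 genes had a peak within 50 kb in IL-17-blocked (27.4%). Genes in IgG-aged and not in adult then numbered 3 (Il12b, Il12rb2 and Il23a, background 2.67%), those in adult and not in IL-17-blocked 0 (2.76%), and those in IL-17-blocked and not in IgG-aged 0 (2.93%). A window of 20 kb gave 4 genes in adult (28.8%) and 4 in IL-17-blocked (21.3%).

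With the lists labelled adult and IL-17-blocked exchanged, the genes in adult and not in IgG-aged numbered 1 (5.81%), in adult and not in IL-17-blocked 2 (1.70%), in IL-17-blocked and not in adult 1 (7.38%), and in IL-17-blocked and not in IgG-aged 0 (10.8%). Without either of these lists, the counts of genes with a peak in every or in any remaining list stayed within 1.5 times. No paired analysis was possible because each condition has 1 list. Fewer peaks in a list, by threshold or by number, cannot leave more called genes per list, by construction.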
